A study of Mus musculus with 2 samples.

Results

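The expression of 10 genes characteristic of white fat cells (Adipoq, Cfd, Retn, Retnla, Plin1, Cidec, Fabp4, Lpl, Lipe and Pparg) was examined in dissected glomerular regions of diabetic mouse kidney. These 10 are among 20017 genes named on the array and are read by 12 probes, matched through the transcript accession of each probe. The genes had been chosen on their biology and on the values of these same 2 arrays, so their differences are given as a description. Both groups were male mice of C57BL/6J strain background, made diabetic at 8 weeks of age with streptozotocin (STZ), which destroys the beta cells of the pancreas, and killed at 32 weeks. The WT+STZ group was wild type, and the TG+STZ group carries, by its label, a transgene meant to raise Sirt1, a deacetylase that uses NAD. The array's Sirt1 probe read 2625 units on WT+STZ and 2977 on TG+STZ, a log2 difference of 0.10 ± 0.20 (scanner error) that does not show overexpression, and the sources used here do not say whether the transgene is read by that probe. Streptozotocin was thus common to both groups, and no nondiabetic array was analysed here. The promoter that drives the transgene and the number of mice behind each array are not given in the sources used here. Each group had 1 array (Agilent, Cy3, 1 colour), so the groups could not be tested against each other and every difference below lacks replicates.

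White fat cells store triglyceride in a single large droplet and release it as fatty acids on demand. Lipoprotein lipase on the capillary wall frees fatty acids from circulating lipoproteins, fatty acid binding proteins carry them inside the cell, perilipin and CIDE proteins coat and enlarge the droplet, and hormone-sensitive lipase breaks it down. The nuclear receptor PPAR gamma switches on much of this programme, and the cell also secretes proteins such as adiponectin, resistin and complement factor D. Fat surrounds the kidney and fills its hilum, whereas Lpl, Fabp4 and Pparg are also expressed by other cells, among them endothelial cells and macrophages.

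Start regions of the members with the largest differences are shown because these genes were higher together on 1 array. RefSeq windows (GRCm38.p6, 250 bases before to 50 after the annotated start) were found for 8 of the 10 members, 12 windows in all. The 5 printed below belong to the members that have 1 window each and a difference or bound over 2-fold. They lie at chr16:23146286-23146585 (plus strand) for Adipoq, chr10:79890603-79890902 (plus) for Cfd, chr8:3655520-3655819 (plus) for Retn, chr16:48842359-48842658 (plus) for Retnla and chr7:79732727-79733026 (minus) for Plin1. Each reads 5′ to 3′ in the direction of the gene, and capitals mark exact matches to a C/EBP core or a TATA box.
Adipoq: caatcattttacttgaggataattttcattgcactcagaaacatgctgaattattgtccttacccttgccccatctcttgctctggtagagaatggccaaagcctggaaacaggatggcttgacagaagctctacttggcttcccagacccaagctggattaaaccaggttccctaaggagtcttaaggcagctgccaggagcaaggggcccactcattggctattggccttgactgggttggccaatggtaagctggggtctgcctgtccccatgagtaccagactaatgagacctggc
Cfd: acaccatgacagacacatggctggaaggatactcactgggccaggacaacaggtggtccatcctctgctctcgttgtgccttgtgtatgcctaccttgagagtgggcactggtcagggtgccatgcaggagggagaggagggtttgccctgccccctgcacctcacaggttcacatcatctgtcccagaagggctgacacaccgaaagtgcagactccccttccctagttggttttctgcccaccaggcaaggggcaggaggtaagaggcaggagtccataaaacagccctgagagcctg
Retn: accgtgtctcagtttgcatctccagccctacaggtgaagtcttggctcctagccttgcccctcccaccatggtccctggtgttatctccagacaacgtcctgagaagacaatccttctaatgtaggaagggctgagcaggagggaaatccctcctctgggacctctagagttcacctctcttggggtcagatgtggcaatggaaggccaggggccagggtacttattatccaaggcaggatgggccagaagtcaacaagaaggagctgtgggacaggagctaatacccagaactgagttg
Retnla: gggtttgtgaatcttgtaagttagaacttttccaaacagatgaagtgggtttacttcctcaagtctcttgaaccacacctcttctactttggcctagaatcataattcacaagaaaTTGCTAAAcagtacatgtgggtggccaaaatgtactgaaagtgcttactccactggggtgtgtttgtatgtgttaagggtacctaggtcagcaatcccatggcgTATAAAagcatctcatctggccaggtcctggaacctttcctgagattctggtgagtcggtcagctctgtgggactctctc
Plin1: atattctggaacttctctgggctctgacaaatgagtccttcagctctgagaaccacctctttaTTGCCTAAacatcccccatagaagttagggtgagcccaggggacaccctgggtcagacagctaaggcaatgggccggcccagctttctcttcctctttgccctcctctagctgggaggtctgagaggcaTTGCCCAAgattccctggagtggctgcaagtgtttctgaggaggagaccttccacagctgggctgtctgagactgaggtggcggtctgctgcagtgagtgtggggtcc

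Motifs were searched on both strands. A PPAR response element of the DR1 type, a pair of AGGTCA half-sites 1 base apart with at most 2 mismatches over their 12 bases, was found in 0 of the 12 member windows and in 3.9% of all 32851 windows. The C/EBP core TTGCNNAA was present in 4 of the 12 windows (10.8% of all windows), and these belonged to Retnla, Plin1, Cidec and Pparg. In the printed windows its matches lie 134 bases before the start of Retnla and 187 and 58 bases before that of Plin1. The TATA box TATAAA was present in 2 of the 12 (13.6% of all), once 30 bases before the start of Retnla and once in a window of Pparg. The GC box GGGCGG was present in 3 of the 12 (35.7% of all), in windows of Lipe and Pparg, where 2 of the matches in Lipe overlap each other. A match is a run of letters and not a shown binding site. Among the printed windows, those of Retnla and Plin1 shared the C/EBP core, and those of Adipoq, Cfd and Retn held none of the motifs searched.

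Signals are the processed spot intensities of the scanner software, in intensity units, with the software's own error of the spot. Each array's 75th percentile of gene spots (1933 units for the wild-type array, 2042 for the transgenic one) was used to scale it, and a difference is TG+STZ minus WT+STZ of the scaled log2 values. A probe counts as detected when the software marks it well above background. The error printed with a difference combines the software's errors of both spots. It covers 1 hybridisation and not the spread between mice, and it was 0.20 for the median gene. In bulk RNA of this kind, more cells of a type and more RNA per cell cannot be told apart.

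Of the 10 members, 7 were detected on both arrays and 3 (Adipoq, Retnla and Plin1) on the TG+STZ array alone. Among the 16449 named genes detected on either array, 319 (1.94%) were detected on TG+STZ alone and 152 on WT+STZ alone. Detection on 1 array was thus more frequent on TG+STZ over all genes. All 7 measured members were higher on TG+STZ, against 50.9% of the 15975 genes measured on both arrays (36.9% with normexp background correction, where 6 of the 7 were higher). Of the 7, 3 (Cfd, Retn and Cidec) were at least 2-fold higher, against 0.520% of genes measured on both arrays. With the 3 lower bounds added, 6 of the 10 members were at least 2-fold higher, against 0.675% of the genes detected on either array. Since the members were chosen with these values known, nothing is read from the gap between these shares. Over the 7 measured members the median log2 difference was 0.35, against 0.00 over all measured genes. The 7 exclude the 3 members that the WT+STZ array did not detect, so that median does not describe the 10.

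**Figure D1:**
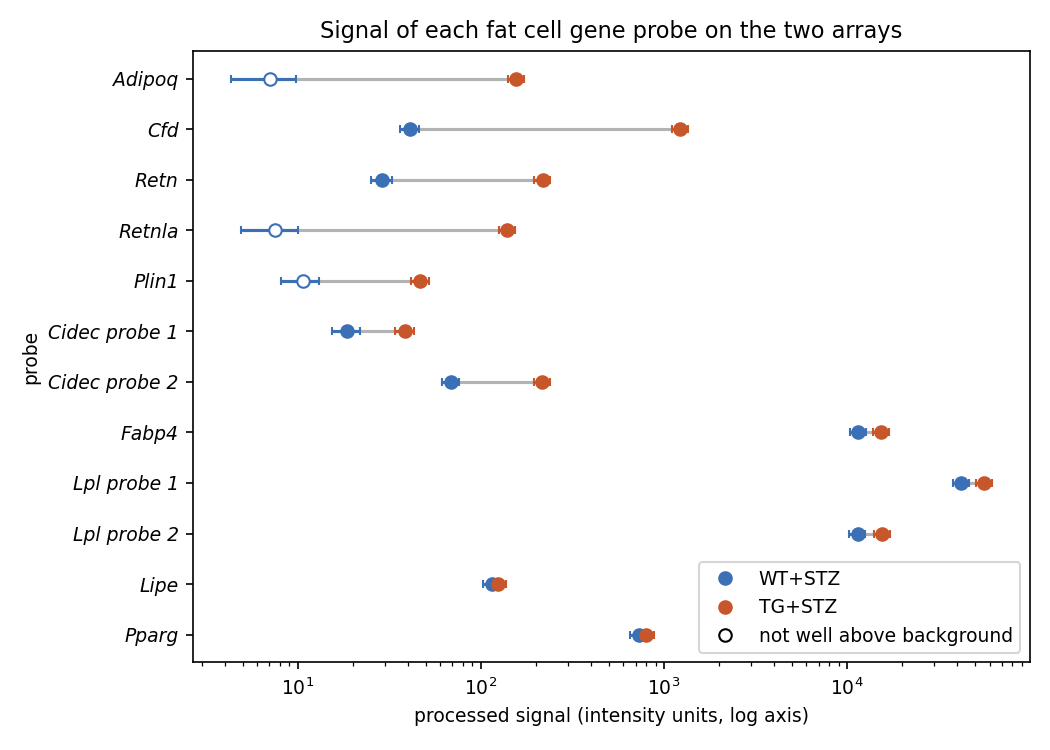
Processed signal of the 12 probes of the 10 genes (intensity units, log axis) on the WT+STZ array (blue) and the TG+STZ array (orange), with bars for the scanner software's error of the spot and open circles for spots not well above background. Adipoq, Retnla and Plin1 have open circles on WT+STZ alone, and the signal of 1 gene should not be set against that of another, since probes differ in brightness.

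Secreted hormones and the complement protease are described first. Cfd (probe accession NM_013459) encodes complement factor D, or adipsin, a serine protease of the alternative complement pathway that fat cells secrete. Its signal was 41.2 ± 4.78 units on WT+STZ and 1225 ± 122 units on TG+STZ, both well above background. The log2 difference was 4.82 ± 0.22, or 28.2-fold, which ranked 1st of the 15975 genes measured on both arrays. With normexp, another background correction that was tried and that adds an offset of 50 units, it was 3.41.

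Adipoq (NM_009605) encodes adiponectin, a hormone made almost only by fat cells. Its probe read 7.07 ± 2.74 units on WT+STZ, where it was not well above background, and 156 ± 15.8 units on TG+STZ. The dimmest detected probe of the WT+STZ array read 10.6 units, and set against that level Adipoq was at least 13.9-fold higher on TG+STZ. This was the 3rd largest such bound of the 319 genes detected on TG+STZ alone. The log2 bound of 3.80 was 1.34 under normexp.

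Retn (NM_022984) encodes resistin, a cysteine-rich hormone that mouse fat cells secrete. Its spot gave 28.9 ± 3.85 units on WT+STZ and 218 ± 21.9 units on TG+STZ. The difference of 2.84 ± 0.24 corresponds to 7.14-fold and ranked 6th of the 15975 genes, and it was 1.39 under normexp.

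Retnla (NM_020509), a relative of resistin that is made in fat tissue and by alternatively activated macrophages, read 7.47 ± 2.58 units on WT+STZ and 139.8 ± 14.2 units on TG+STZ. It was not well above background on WT+STZ, so TG+STZ was at least 12.5-fold higher, the 4th largest bound. The log2 bound of 3.64 was 1.18 under normexp. The resistin family is a group of similar genes, and the tables used here do not show whether a probe reads more than 1 of them. Retnlg had 45.2 and 54.8 units (0.20 ± 0.22, and below 0 under normexp), and Retnlb was not well above background on either array.

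Next are the lipid droplet proteins. Plin1 (NM_175640) encodes perilipin-1, which coats the droplet of fat cells and guards it against lipases. It read 10.6 ± 2.49 units on WT+STZ, just at the lowest detected signal of that array, and 46.8 ± 5.11 units on TG+STZ. Its WT+STZ reading was marginally above that lowest signal and was used for the bound. The 4.17-fold, the 7th largest bound, is thus the plain ratio of its scaled readings, without the scanner error.

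Cidec (NM_178373) encodes a protein that fuses small droplets into a large one. Its first probe gave 18.7 ± 3.20 units on WT+STZ and 38.5 ± 4.53 units on TG+STZ, a difference of 0.97 ± 0.30. Its second probe gave 68.3 ± 7.20 and 217 ± 21.8 units, a difference of 1.59 ± 0.21. Both probes lay on the same side of 0, and their mean of 1.28 ± 0.18 (2.42-fold) ranked 47th of the 15975 genes. Plin1 and Cidec were under 2-fold with normexp background correction, at a bound of 0.31 and a difference of 0.54 on the log2 scale.

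The enzymes and the carrier of fatty acids had small differences. Lpl (NM_008509), lipoprotein lipase, has 2 probes. They read 41890 ± 4189 and 11457 ± 1146 units on WT+STZ against 56082 ± 5608 and 15598 ± 1560 units on TG+STZ. The differences of 0.34 ± 0.20 and 0.37 ± 0.20 nearly coincided, and their mean was 0.35 ± 0.14, or 1.28-fold.

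Fabp4 (NM_024406), the fatty acid binding protein of fat cells, macrophages and capillaries, stood at 11503 ± 1150 units on WT+STZ and 15379 ± 1538 units on TG+STZ. This is a difference of 0.34 ± 0.20, or 1.27-fold. Lpl and Fabp4 ranked 735th and 776th, and both are in the brightest of 4 equal classes of measured genes, where 95% of differences lay between -0.25 and 0.36. Their values lie inside that range, near its upper end.

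Lipe (NM_010719), hormone-sensitive lipase, stood at 115 ± 11.8 units on WT+STZ and 124 ± 12.6 units on TG+STZ, a difference of 0.03 ± 0.21. Under normexp the difference was -0.07. The difference is smaller than the scanner error.

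Pparg (NM_011146), the nuclear receptor that directs fat cell differentiation, was spotted 10 times on each array, which measures the scatter of the spots directly. On WT+STZ the 10 spots ran from 711 to 754 units with a median of 728. On TG+STZ they ran from 761 to 836 units with a median of 795. The unscaled ranges do not overlap, but after scaling the difference was 0.05 ± 0.20, with spot-by-spot differences from -0.02 to 0.12 and 9 of 10 above 0. The SD over the spots was 0.03 on WT+STZ and 0.04 on TG+STZ on the log2 scale, a scatter within each array. The difference of 0.05 between the arrays was small and below the scanner error of 0.20.

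**Figure D2:**
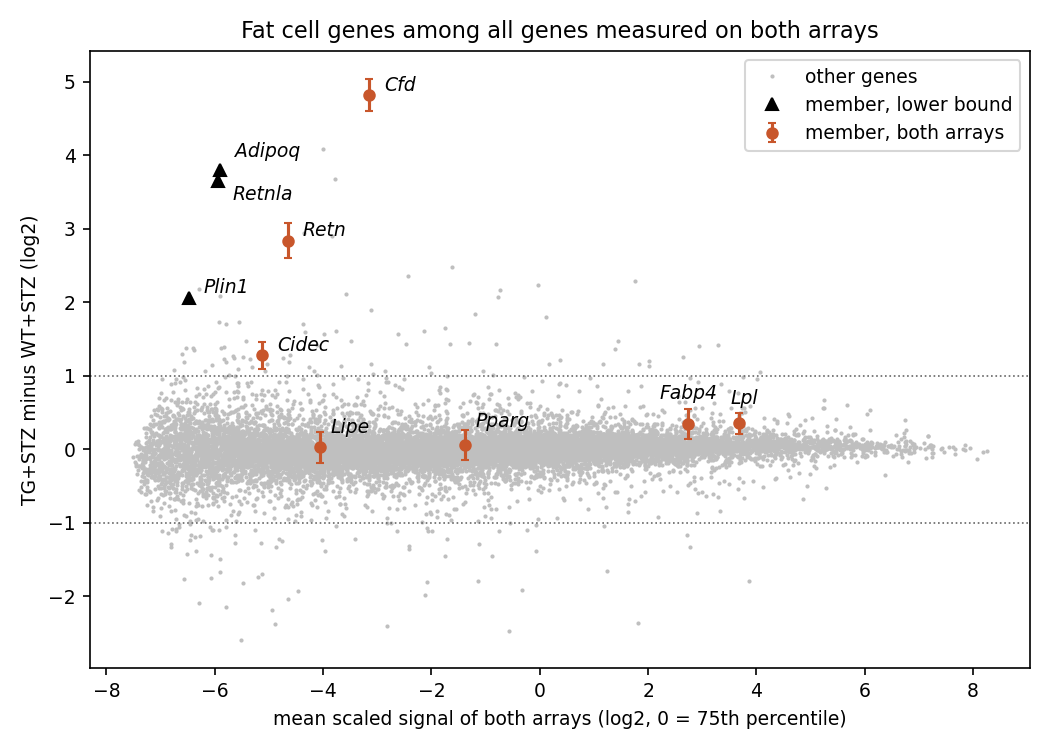
Log2 difference, TG+STZ minus WT+STZ, against the mean scaled log2 signal of both arrays for the 15975 genes measured on both (grey), with the 7 measured members in orange (bars: scanner error) and the 3 lower bounds as triangles; dotted lines mark 2-fold. Cfd stands above all grey points at 4.82, whereas Lipe and Pparg lie near 0 and Lpl and Fabp4 near 0.35.

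Dim genes scattered more than bright ones. Measured genes were split into 4 equal classes by their mean scaled log2 signal over both arrays. The dimmest class, which holds Retn, Cidec and Lipe, had 95% of its differences between -0.73 and 0.71. The next class, which holds Cfd and Pparg, had them between -0.51 and 0.45. Retn, Cidec and Cfd stood outside these ranges and Lipe and Pparg inside. This only describes the values, since the members were chosen with them known. The class of a gene also depends on its TG+STZ signal. The scaled WT+STZ level of Cfd alone was -5.55, below the -3.72 at which the dimmest class ends. The members' spots were scattered over the array. For the 11 probes spotted once, the median difference of the detected spots around each (within 2 rows and 1 column) ran from -0.13 to 0.11.

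**Figure D3:**
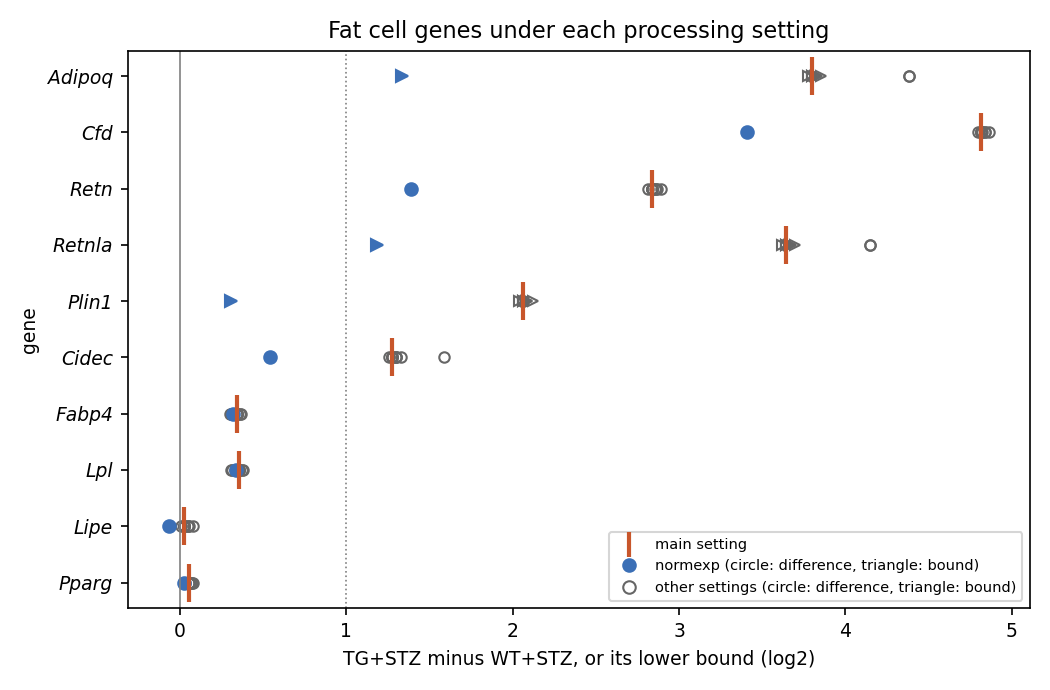
Difference or lower bound (log2) of each of the 10 genes under the main setting (orange bar) and 11 alternatives (blue for normexp, open grey for the rest; circles are differences and triangles bounds), with a dotted line at 2-fold. Normexp gives the lowest value for Adipoq, Cfd, Retn, Retnla, Plin1 and Cidec, and only Lipe passes below 0.

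By rank, the genes nearest to the highest members included other fat cell transcripts. After Cfd, the largest differences over the 2 arrays were those of Olfr224 (4.09 ± 0.23), Ctxn3 (3.67 ± 0.22), Cox8b (2.93 ± 0.23) and Cidea (2.90 ± 0.21), which lay 0.73 to 1.92 below Cfd. Under normexp Cox8b was at 1.51 and Cidea at 2.003. Cox8b, a subunit of cytochrome oxidase, and Cidea, a droplet protein, are abundant in brown fat. Among bounds, Synpr (at least 97.3-fold) and Ucp1 (at least 24.5-fold), the uncoupling protein of brown fat, stood before Adipoq, and Esp6 (at least 5.33-fold) after Retnla. Likeness here rests on 1 difference per gene.

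Further genes of white fat cells were read too. Wherever genes of a list are counted as higher or lower below, 50.9% of all measured genes were higher. Because the members were chosen with their values known, no comparison in size with them is drawn. Of 24 such genes on the array, 20 were measured, 12 higher and 8 lower on TG+STZ, with a median of 0.02 that was -0.02 under normexp. Of the 20, 0 were at least 2-fold higher, against 0.520% of all measured genes, a share so low that nothing is read from the 0. Adrb3, the adrenergic receptor of fat cells, stood at 0.87 ± 0.19, but its probes disagreed at 1.70 and 0.035, and it was 0.08 under normexp. Thrsp, a regulator of lipid synthesis, was at 0.69 (461 against 784 units), Cd36, a fatty acid transporter, at 0.57 and Adig, a small fat cell protein, at 0.48 ± 0.17 (0.08 under normexp). Lep, which encodes leptin, was not well above background on either array, nor were Lgals12, Acvr1c and Slc7a10. By the main detection rule the marker Adipoq was well above background on TG+STZ alone, and leptin on neither array. With a laxer detection flag that was tried, Adipoq was measured on both arrays, at 4.38.

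Around the lipid droplet, 11 of 15 genes were higher and 4 lower, with a median of 0.07. Cidea led, at 49.9 units on WT+STZ and 393 on TG+STZ. Plin5, a perilipin of oxidative tissues, was at 0.55 and Fitm1, a droplet-forming protein, at 0.26, while G0s2, an inhibitor of the lipase ATGL, was lower at -0.59.

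Partners of lipoprotein lipase were split, with 5 of 12 higher and 7 lower and a median of -0.04. Angptl4, an inhibitor of the enzyme, stood at 9422 units on WT+STZ and 19479 on TG+STZ (0.97 ± 0.20). Gpihbp1, which carries the enzyme to the capillary surface, was at 0.46, and Apoe and Apoa5 were at -0.43 and -0.35 ± 0.24. Lpl, its carrier and its inhibitor thus all read higher on TG+STZ.

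Receivers of the secreted members were read too. Of 7 adiponectin receptors and effectors, 7 were above 0, against 50.9% of all measured genes. Their median was 0.08, and Cdh13, which binds adiponectin on the cell surface, led at 0.34. Adipor1 stood at 0.12, the kinase subunit Prkaa2 at 0.10 and the adaptor Appl1 at 0.08. Normexp left 6 of the 7 above 0, against 36.9% of all measured genes. Cap1, a reported resistin receptor and actin regulator, stood at 4555 and 8297 units (0.79). In the alternative complement pathway, 2 of 6 measured genes were higher, against 50.9% of all measured genes. Cfi, a protease that cleaves activated C3, was at -0.69, while C3, the central component, was at 0.16 ± 0.14, its receptor C3ar1 at -0.09 and Cfb, the substrate of factor D, at -0.05.

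Among 9 measured relatives of Fabp4, 6 were higher and 3 lower, with a median of 0.18 that normexp turned to -0.04. Fabp1, the liver form, was lower at -0.88 and Crabp2, a retinoic acid carrier, higher at 0.68. Fabp2, the intestinal form, was at -0.37, and Fabp6, the bile acid carrier of the ileum, was at 0.39 ± 0.38 and turned to -0.24 under normexp. Of 20 partners of PPAR gamma, 11 were higher and 9 lower with a median of 0.02. Cebpd and Cebpb, early factors of fat cell differentiation, stood at 0.96 and 0.39, and the corepressor Tle3 at 0.24. Rxrg was at 0.23 ± 0.15, but its probes stood on opposite sides of 0 at 0.59 and -0.13.

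Markers of other cell types that may accompany fat were read beside the members. Of 15 brown fat genes, 11 were measured, 8 of them higher and 3 lower, with a median of 0.05, and Ucp1 was detected on TG+STZ alone at 274 units. Cox8b and Cidea were at least 2-fold higher, Dio2, which activates thyroid hormone, was at 0.91 ± 0.23 (0.27 under normexp) and Pank1 at 0.36, while Elovl3, Lhx8 and Ebf2 were not detected on either array. The summed level of the brown list was 13.5 on WT+STZ and 15.5 on TG+STZ, in multiples of the 75th percentile. It came mostly from Cox7a1 (11734 and 12596 units) and Pank1 (10589 and 14387 units). The part of brown fat in the differences of Adipoq, Cfd, Plin1 and Cidec, which brown fat also expresses, was not tested.

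Fat progenitor and adventitial fibroblast markers were higher for 13 of 17 genes, against 50.9% of all measured genes. Their median was 0.39 (0.20 under normexp) and their summed levels were 51.4 and 60.5. Ly6a (59370 and 74798 units) made up most of these sums. Clec3b was at 1.096 ± 0.24 (0.17 under normexp), Dlk1, a preadipocyte marker, at 0.67 ± 0.21 (0.26 under normexp), Igfbp6 at 0.61 and Dpt at 0.59 ± 0.22 (0.12 under normexp). Genes listed as markers of mesothelium, the lining of the body cavity, were higher for 4 of the 6 measured. Upk3b was at 1.14 (103 against 239 units, 0.70 under normexp) and Upk1b at 0.88 (0.44 under normexp). Msln, which encodes mesothelin, was at 0.23 and Krt19 at 0.15. Their summed levels were 5.79 and 5.92, mostly from Gpm6a (6417 and 6762 units), and Lrrn4, Calb2 and Bnc1 were not detected. Whether the listed genes came from the cell types they are listed for, and how far those cells moved with the members, was not tested.

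Macrophage and capillary markers were read as well, since these cells can also make Fabp4, Lpl or Pparg. Of 12 measured macrophage markers 9 were lower and 3 higher, where 50.9% of all measured genes were higher. Their median was -0.12 and their summed levels were 32.2 and 32.7. Mgl2 alone (37169 and 42185 units) made up most of these sums. Lyz2 stood at -0.50, Clec10a at -0.27, Cd209a at 0.49 and Mrc1, the mannose receptor, at 0.36, and Arg1 and Cd163 were not detected on either array. Capillary endothelial markers were lower for 12 of 14 genes and higher for 2, where 50.9% of all measured genes were higher. All but Tie1 lay within their scanner error, so these values give no direction for single genes. Their median was -0.09 and their summed levels were 95.3 and 87.2. Most of those sums came from Aqp1 (119042 and 110984 units), which is also on the proximal tubule list. Tie1 was at -0.25, the water channel Aqp1 and Eng both at -0.18, and Rgcc at 0.15. The part of these cells in the values of Lpl, Fabp4 and Pparg was not tested.

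**Figure D4:**
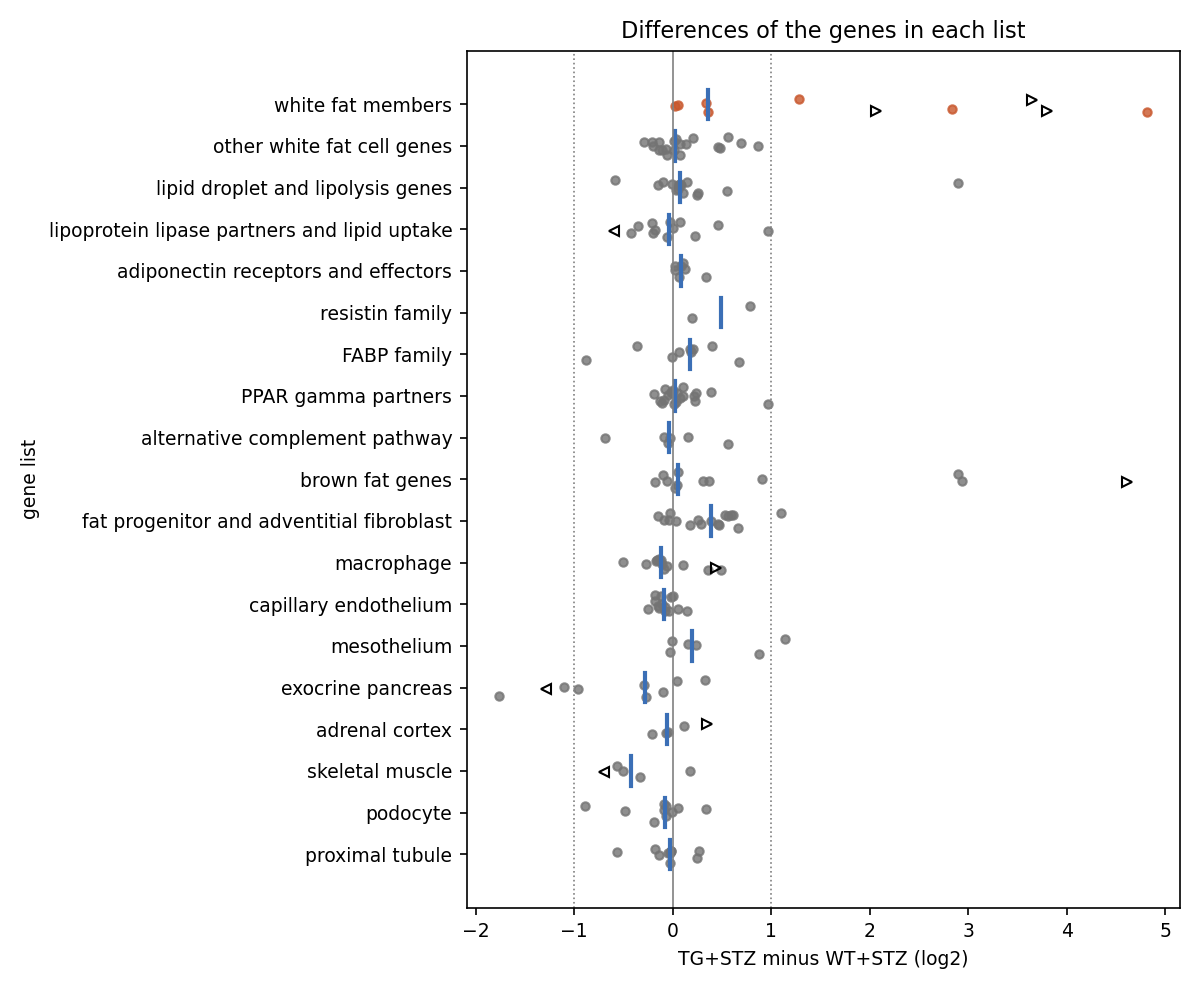
Log2 difference, TG+STZ minus WT+STZ, of each measured gene (dots) by gene list, with the list median as a blue bar, lower bounds as right-pointing triangles for genes detected on TG+STZ alone and left-pointing ones for WT+STZ alone, and dotted lines at 2-fold; the 7 measured fat cell genes are orange. The members reach 4.82 and the brown fat genes 2.93, while the endothelial markers stay between -0.25 and 0.15.

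Markers of both glomerulus and tubule were present on both arrays. All 10 podocyte markers were detected, 8 of them lower on TG+STZ, with a median of -0.08, Nphs1 (nephrin) at -0.89 and Podxl at -0.19. All 10 proximal tubule markers were detected too, with a median of -0.03, Slc22a8 at -0.56, Slc22a6 at 0.27, Slc5a12 at 0.25 and Aqp1 at -0.18. Summed levels were 17.5 on WT+STZ and 14.7 on TG+STZ for podocyte markers, and 952 and 926 for proximal tubule markers. Tubule RNA was thus plentiful in these samples. Probes differ in brightness, so the sums do not give shares of cells.

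Genes next to the members on the chromosome were read where the array measured them. The nearest 2 genes on each side in the RefSeq order gave 40 places, of which 16 held a gene measured on both arrays. These 16 ran from -0.26 to 0.29 with a median of 0.03 and 9 above 0, and 0 were at least 2-fold higher (0.520% of all measured genes). Lpl and Pparg had no measured neighbour, and Adipoq and Retnla had 1 each. Med16 and Elane beside Cfd stood at -0.01 and -0.21, Stxbp2 and Mcemp1 beside Retn at 0.11 and 0.13, and Rfc4 beside Adipoq at -0.17. Pex11a, a peroxisomal gene beside Plin1, was the highest at 0.29.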

How the data were processed

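The deposited scanner tables, 1 per array, give the authors' processed intensity of each spot, not log-transformed, with its error and flags. The software, per the file headers, was Agilent Feature Extraction 10.7.1.1 (10.3.1.1 per the submitters' processing notes). The headers also record background-subtracted signals and a spatial detrending of each array, and place both arrays on 1 slide. The deposited value table holds the same intensity at all 44397 spots.

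Control spots and spots marked as outliers (114 and 109 gene spots) were left out, log2 was taken, the log2 of the 75th percentile of 43020 gene spots subtracted, and spots of a probe averaged. Of 39426 probes, 26410 were named through RefSeq (GRCm38.p6), whereas the array design is of another build, so the probes' coordinates are not given. The printed promoter windows carry the RefSeq coordinates. Of a gene's probes, those well above background and unsaturated on both arrays were averaged. For a gene detected on 1 array, the bound divides its signal by the dim array's own reading of that probe or, if larger, by the lowest signal detected there. Detection was 75.0% of gene spots on WT+STZ and 76.3% on TG+STZ, and the lowest detected signal was 10.6 and 9.70 units. The number of arrays limits the precision.

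The members and gene lists were chosen with earlier results of these data known. Named are the members, the 4 measured genes furthest from 0 in each list with up to 3 bounds of 2-fold or more, the 5 highest differences and bounds, and some of the genes flanking the members. Other names, such as Lep, Cfb and undetected markers, were chosen after their values were seen. A few genes that this rule names are not reported here. A planned description of proteins was not made. The alternatives were normexp with an offset of 50 (limma 3.58.1, R 4.3.3), median scaling, the percentile over detected probes, quantile and loess (span 0.3) normalization, spike-in centring over 8 probes, the value table, no filter, a laxer detection flag, the brightest probe, outliers kept, a 1.5-fold threshold and leaving out the furthest member. The steps were tested on simulated data. Python 3.11.15, pandas 2.3.3 and statsmodels 0.14.6 were used.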

Additional observations from a re-analysis of the deposited data

How the results depend on the processing

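Without a filter on dim probes, and with the laxer detection flag, all 10 members had a difference and their median was 1.67 in place of 0.35, because Adipoq, Retnla and Plin1 entered. Under the other 9 settings, and without the furthest member, the median ran from 0.31 to 0.38. At least 2-fold higher were 6 members under 10 of the 11 settings and at a 1.5-fold threshold, and 4 under normexp, with Cfd at 3.41, Retn at 1.39 and bounds of 1.34 for Adipoq and 1.18 for Retnla. Normexp was run with an offset of 50 units. On WT+STZ the 6 members read below it, from 7.07 units for Adipoq to 43.5 for Cidec (mean of its probes). A constant added to both arrays makes a ratio of dim readings smaller by arithmetic. How much of each fall the offset accounts for was not tested. Over all genes, 83 were at least 2-fold higher in the main setting, 36 under normexp, 295 without the filter and 202 with the laxer flag. Over single members, 99 of 110 values stayed within the scanner error of the main value and 11 did not. Many of the 99 could not have moved. The value table holds the main intensities, and keeping outliers left every member at its main value. Choosing the brightest probe cannot change a gene with 1 probe, and the filter and flag settings left members already measured as they were. The 99 is thus not a count of separate checks. The brightest probe of Cidec gave 1.59. Depth of signal limits Adipoq, Retnla and Plin1 on WT+STZ to bounds. No paired analysis was possible because each group had 1 array.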

Other observations

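Lists of other tissues that lie near the kidney were read in the same way. Of 11 exocrine pancreas genes, 8 were measured, 6 of them lower on TG+STZ, with a median of -0.28, opposite in sign to the fat cell genes. Cpb1, a carboxypeptidase, stood at -1.76 ± 0.34 (37.6 against 11.7 units) and Cela3b, an elastase, at -1.11 ± 0.37. Cpa1 was detected on WT+STZ alone and was at least 2.44-fold higher there. Amy2a5, an amylase, was at -0.96 ± 0.15, but its probes disagreed at -1.84 and -0.08. Cela1 was at 0.33 and turned to -0.08 under normexp, where Cpb1 and Cela3b were at -0.78 and -0.49.

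Adrenal cortex markers gave little signal. Of 9 genes, 4 were measured, with Cyp21a1 at -0.21, Nr5a1 at -0.07, Akr1b7 at -0.04 and Star at 0.11 (-0.15 under normexp), and Cyp11a1, Cyp11b1, Cyp11b2 and Hsd3b1 were not detected on either array. Of 10 skeletal muscle genes 4 were measured, and their median of -0.42 was 0.14 with the laxer detection flag, so they give no direction. Acta1 stood at -0.51, Tnnt3 at -0.57 ± 0.36, Actn3 at -0.33 and Tnni2 at 0.17. Ckm, Mb, Myh2, Myh4 and Mylpf were not detected on either array.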
